A study of Homo sapiens with 8 samples.

Results

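Gene expression was compared between MDAH and SKOV3 cells that had not been silenced for SFPQ, an RNA-binding protein of the nucleus. Both are established human cell lines of epithelial ovarian cancer. The comparison took the 4 control arrays of the series, 2 of MDAH and 2 of SKOV3, out of 8 arrays in all. The other 4 arrays held cells of the same lines after SFPQ silencing. They entered a side-by-side measurement given last, a test of change with silencing, and those alternative runs that used all 8 arrays. The arrays were chosen by their sample titles, which name all 4 as control shRNA samples. The labels say that both lines were grown as their cell bank advises, and name no drug. The supplementary methods instead list a parental and a control-shRNA sample for each line, so the 2 arrays of a line may not be equal replicates. Nothing states that they came from separate cultures, and p-values therefore measure only the spread between these samples, which may be technical. Each line is 1 culture line, so a difference between MDAH and SKOV3 describes these cells and not a class of tumour.

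Ovarian carcinomas of epithelial type resemble epithelia of the Müllerian tract, the embryonic duct that gives rise to the Fallopian tube and uterus, and PAX8 and SOX17 are transcription factors of that tract. Epithelial cells hold to each other through cadherins, claudins and desmosomes, while ZEB1, SNAI2 and related repressors lower such genes and accompany a mesenchymal state. Cell lines kept apart for a long time also differ in gene copy number and in which genes are kept silent, and ERBB2, which encodes a receptor tyrosine kinase, is a known target of copy gain in carcinomas.

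A level is given here as the log2 signal of a gene's probe minus the 75th percentile of all probes on the same array, so that 0 is the brightness of that percentile. Levels of different genes cannot be set against each other, because each probe binds with its own strength. A difference is the mean of the MDAH arrays minus the mean of the SKOV3 arrays on the log2 scale, with its standard error (SE) from the limma fit and n = 2 arrays per line. A gene was called when its p-value, adjusted over all genes by the Benjamini-Hochberg method, was under 0.05. Arrays of a line were close to each other, with Pearson r = 0.99 across genes for both MDAH and SKOV3. Between the lines r lay from 0.81 to 0.82. The 75th percentile of the signal ranged from 387 to 496 over the 4 arrays, and between 47.8% and 57.0% of probes were well above background, with the higher shares on the MDAH arrays. All 4 arrays lay on 1 slide, MDAH in its first row and SKOV3 in its second, so that line and row cannot be told apart.

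The lines differed in most of the genes measured. Of 15427 genes tested, 4697 (30.4%) were called higher in MDAH and 5333 (34.6%) higher in SKOV3, together 10030 (65.0%). An unadjusted p under 0.05 was reached by 10623 genes. With a difference of at least 4-fold added to the rule, 1644 genes (10.7%) were called higher in MDAH and 1082 (7.01%) higher in SKOV3, together 2726 (17.7%). The median difference over all genes was -0.05, and the median of its absolute size was 0.77. Of the 4-fold calls, 880 of those higher in MDAH were not well above background on either SKOV3 array, and 330 of those higher in SKOV3 were not on either MDAH array. Their fold can only be bounded, and an "at least" value below sets the brighter line's mean against the higher of the dim probe's own signal and the lowest signal well above background on each array of the dimmer line. When only genes well above background on all 4 arrays were tested, 662 were at least 4-fold higher in MDAH and 697 in SKOV3, and 48.7% of these calls were higher in MDAH in place of 60.3%. The shares of 30.4%, 34.6%, 10.7% and 7.01% are the background for each gene list below. Medians of lists hold fitted differences, also of genes at background in 1 line.

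**Figure D1:**
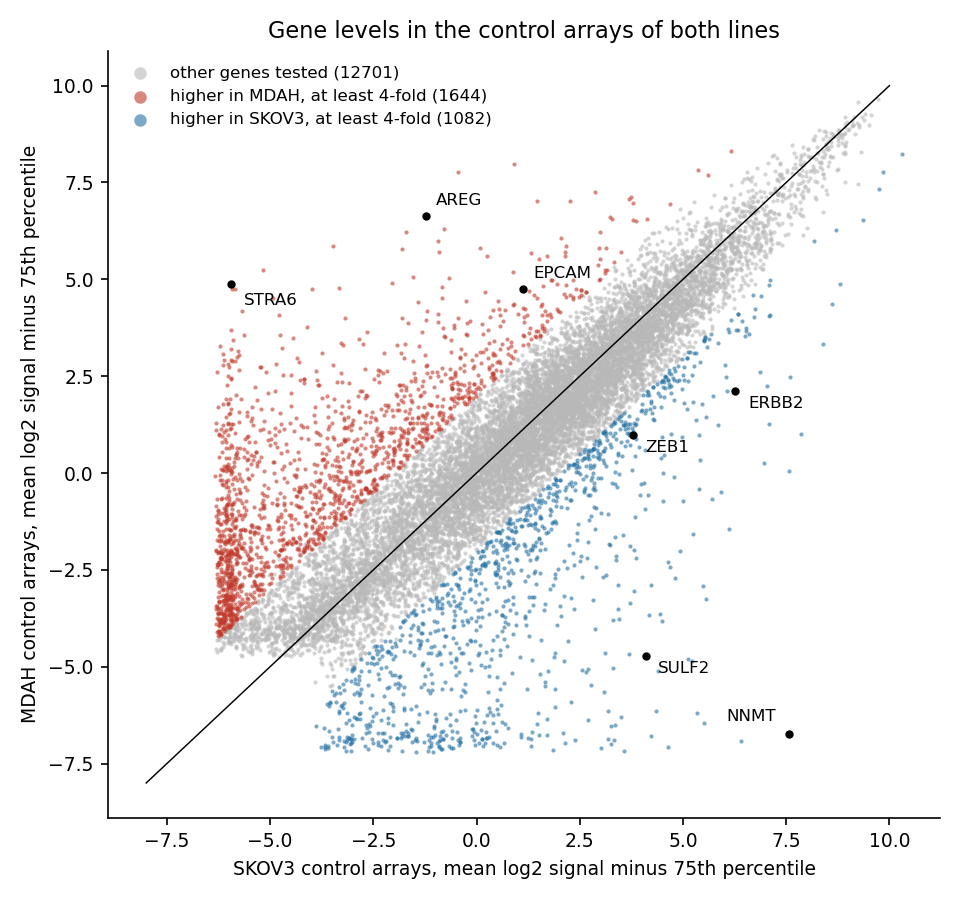
Mean level of each of the 15427 genes tested on the SKOV3 control arrays (horizontal) and the MDAH control arrays (vertical), as log2 signal minus the 75th percentile; red and blue points are the 1644 and 1082 genes called at least 4-fold higher in MDAH or SKOV3, and the line marks equal levels. STRA6 sits at the upper left, with SKOV3 levels near the background, and NNMT at the lower right, with MDAH levels near it.

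Genes that characterise the lines were read first. ERBB2 was at 1.90 and 2.33 on the MDAH arrays and at 6.49 and 6.05 on the SKOV3 arrays. It was 17.8-fold higher in SKOV3 (log2 difference -4.15, SE 0.23, limma adjusted p = 0.000162). The groups did not overlap, which held for 13148 (85.2%) of all genes tested.

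SFPQ itself was at 3.64 and 3.91 in MDAH and at 4.84 and 4.66 in SKOV3. It was 1.97-fold higher in SKOV3 (log2 difference -0.98, SE 0.16, adjusted p = 0.00459). Its paraspeckle partner NONO was 1.85-fold higher in SKOV3 (adjusted p = 0.00267) and the splicing factor SRSF2 was 2.91-fold higher there (adjusted p = 0.00227). CASP9, the initiator caspase of the mitochondrial death pathway, was 1.63-fold higher in MDAH (adjusted p = 0.00769).

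Markers of cell types were read as a check of what the cultures held. All 10 epithelial markers were well above background on both MDAH arrays and 8 of 10 on both SKOV3 arrays, where CDH1 was not and ESRP1 was on 1 array. Their summed linear signal, relative to the 75th percentile, was 381 and 487 in MDAH and 581 and 610 in SKOV3. Such a sum follows its brightest probes, in SKOV3 above all KRT7 (8.67 and 8.53), and sums of different marker sets cannot be compared. Of the 10 epithelial markers, 6 were called higher in MDAH and 1, KRT7, in SKOV3. Fibroblast, leukocyte and endothelial markers summed to between 0.45 and 4.52 on every array. Of 10 leukocyte markers, 6 were nonetheless well above background on both MDAH arrays and 6 on both SKOV3 arrays. For the 10 endothelial markers these counts were 3 and 2, and for the 10 fibroblast markers 1 and 3. Among the fibroblast markers COL3A1, LUM, PDGFRA, PDGFRB, FAP and POSTN were not well above background on any of the 4 arrays. Of 10 mesothelial markers 6 were well above background in MDAH and 2 in SKOV3, with MSLN, PRG4 and ITLN1 above it in neither, and their sum was 3.45 and 3.94 in MDAH against 3.21 and 3.11 in SKOV3. The part of other cell types in the differences was not tested.

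Some genes were bright in SKOV3 and at background in MDAH. NNMT, which encodes nicotinamide N-methyltransferase, was at -6.76 and -6.71 on the MDAH arrays and at 7.32 and 7.82 on the SKOV3 arrays. It was at least 5602-fold higher in SKOV3, the largest bound of any called gene (adjusted p = 1.35e-05). The long noncoding RNA LINC02582 followed with at least 2481-fold, G0S2, an inhibitor of fat breakdown, with at least 1341-fold, and COX7B2 with at least 1184-fold. IGFBP3, a secreted binder of insulin-like growth factors, was at least 1035-fold higher in SKOV3. PXDN, a peroxidase of the extracellular matrix, was at least 736-fold higher there. The remaining genes of this group were UCA1, HOXB5, the calcium-binding protein gene CALB1 and the neuronal ubiquitin hydrolase gene UCHL1, with bounds between 350.4-fold and 596-fold.

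The genes with the largest bounds in the other direction were bright in MDAH and at background in SKOV3. COXFA4L3 was at least 603-fold higher in MDAH and STRA6, the cell surface receptor for retinol-binding protein, at least 464-fold. STRA6 was at 4.998 and 4.74 in MDAH and at -6.01 and -5.88 in SKOV3. Another gene of retinoid metabolism, DHRS3, which encodes a retinal reductase, was at least 365-fold higher in MDAH. ALDH1A3, which encodes a retinal dehydrogenase and was measured in both lines, was at 5.90 and 5.65 in MDAH and at -2.55 and -1.08 in SKOV3. It was 193-fold higher in MDAH (log2 difference 7.59, SE 0.49, adjusted p = 0.000241). Further bounds were at least 424-fold for FKBP10, a collagen chaperone, 286-fold for GAL3ST1, a sulfotransferase of glycolipids, 217-fold for JCAD, 204-fold for the phosphate carrier gene SLC34A2, 187-fold for the neuropeptide gene GAL and 186-fold for BMP7. SLC34A2 is itself a surface antigen of ovarian carcinomas.

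Among genes well above background on all 4 arrays, the largest differences towards MDAH were those of UQCRH, a subunit of respiratory complex III, DMKN, an epidermal secreted protein, and AREG, a ligand of the EGF receptor. UQCRH was at 7.72 and 7.82 in MDAH and at -0.69 and -0.21 in SKOV3, 298-fold apart (adjusted p = 1.91e-05). Its 2 probes gave differences of 8.22 and 8.60, and a near-identical gene copy exists whose transcripts the probes may also bind. AREG was at 6.70 and 6.58 in MDAH and at -1.52 and -0.95 in SKOV3, a difference of 234-fold (adjusted p = 2.63e-05). The other 11 genes of this set besides ALDH1A3 were FAR2P1, CDC42EP1, CRIP1, KREMEN2, CPNE7, FXYD2, SYNE4, PEG10, CDH3, PLTP and TMEM25, with log2 differences between 6.26 and 7.18. For FAR2P1, a pseudogene, the 5 probes disagreed, from -0.69 to 7.18.

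Towards SKOV3 the largest difference among genes measured in both lines was that of SULF2, an extracellular sulfatase that trims heparan sulfate. It was at -4.69 and -4.75 in MDAH and at 4.17 and 4.03 in SKOV3, 452-fold apart (adjusted p = 1.35e-05). Several others encode proteins of the matrix or cell surface. MFAP5, a protein of elastic microfibrils, was 319-fold higher in SKOV3 and NPNT, an integrin ligand, 216-fold. MMP1, an interstitial collagenase, was 149.7-fold higher. FOLR1, the folate receptor alpha used as an ovarian cancer antigen, was at -2.85 and -2.92 in MDAH and at 5.12 and 3.32 in SKOV3, which is 137-fold with the widest spread of this set (SE 0.59). The rest were HOXB2, ZNF542P, ZNF582-DT, EHD2, HSPA1A, PALM, TBX1, DHRS2, LINC00958 and HOXB8, between 136-fold and 449-fold. HSPA1A encodes an inducible heat shock protein and has a near-identical neighbouring copy, so its signal may belong to either.

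Transcription factors of the Müllerian tract, ovary and nearby epithelia differed in most cases. Of 43 tested members, 22 were called higher in MDAH and 15 higher in SKOV3, and 16 and 9 of them by at least 4-fold. PAX8 was nearly level, at 3.97 and 3.91 in MDAH and at 3.52 and 3.61 in SKOV3. Its 1.30-fold difference just passed the threshold (adjusted p = 0.0464) and missed it when any of the 4 arrays was left out, with differences of 0.33 to 0.43. PAX2, a kidney and oviduct factor related to PAX8, was at 4.05 and 4.09 in MDAH and at -3.50 and -6.04 in SKOV3, with 1 SKOV3 array above background (log2 difference 8.84, SE 0.82, adjusted p = 0.000722). FOXL2, a factor of ovarian granulosa cells, was at least 24.7-fold higher in MDAH. WT1, a factor of serous carcinomas and mesothelium, was at least 6.07-fold higher there. The opposite set was led by MECOM, which was at -3.43 and -3.29 in MDAH and at 3.79 and 3.65 in SKOV3, 135-fold apart (adjusted p = 1.41e-05). EHF, an epithelial ETS factor, was at least 13.1-fold higher in SKOV3 and FOXA2 at least 19.8-fold. TBX2 was 25.3-fold higher there. The Müllerian factor SOX17 was 16.9-fold higher in SKOV3 and was named for its role in the tract.

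Antigens used as markers of ovarian carcinoma were divided between the lines. Of 21 tested, 9 were called higher in MDAH and 10 in SKOV3, of which 6 and 7 by at least 4-fold. MUC16, the gene of the CA-125 antigen, was among 15 members that were not well above background on both arrays of either line. Besides SLC34A2, MDAH had higher MDK, a heparin-binding growth factor (14.4-fold), WFDC2, the gene of the HE4 antigen (13.4-fold), and CRABP2, a carrier of retinoic acid (13.4-fold). CD24, a surface mucin-like protein, was 84.1-fold higher in SKOV3, and SPP1, the gene of osteopontin, at least 72.8-fold.

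Genes of epithelial adhesion and polarity were more often higher in MDAH. Of 46 tested, 27 were called higher in MDAH and 12 in SKOV3, against 30.4% and 34.6% of all genes. By at least 4-fold 11 were higher in MDAH and 2 in SKOV3. The median difference of the list was 0.97, and it stayed between 0.63 and 0.99 in every alternative run. CDH3, the P-cadherin gene, was at 3.33 and 3.60 in MDAH and at -2.51 and -3.17 in SKOV3, 79.0-fold apart. CDH1, the E-cadherin gene, was at -0.44 and -0.79 in MDAH and at -3.85 and -5.49 in SKOV3, where neither array was well above background. Its bound was at least 9.60-fold (adjusted p = 0.00243). EPCAM, an epithelial adhesion molecule, was at 4.90 and 4.62 in MDAH and at 1.25 and 0.99 in SKOV3, which is 12.5-fold (adjusted p = 9.53e-05). All 4 values of EPCAM were above the background, and the groups did not overlap, as in 85.2% of all genes tested. KRT19, a keratin of simple epithelia, was 26.9-fold higher in MDAH, and the protease inhibitor gene SPINT1 at least 23.0-fold.

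Of the 12 epithelial genes higher in SKOV3, 2 differed by at least 4-fold. KRT7, the keratin that most ovarian carcinomas share, was at 4.38 and 4.35 in MDAH and at 8.67 and 8.53 in SKOV3, 18.8-fold apart (adjusted p = 3.07e-05). Among the smaller differences towards SKOV3 was that of MAL2, an apical transport protein (2.73-fold).

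Mesenchymal genes leaned the other way. Of 41 tested, 13 were called higher in MDAH and 22 in SKOV3, and 8 and 15 by at least 4-fold. The median difference was -0.83 and lay between -0.98 and -0.65 in all alternatives. Among the repressors of epithelial genes, ZEB1 was at 0.78 and 1.16 in MDAH and at 3.73 and 3.82 in SKOV3, 6.999-fold apart (adjusted p = 0.000214). SNAI2 was at -6.29 and -6.58 in MDAH and at 0.46 and 0.79 in SKOV3, at least 45.3-fold higher in SKOV3. The repressor gene SNAI1 went the other way, at 1.47 and 1.63 in MDAH and at -0.89 and -0.74 in SKOV3. It was 5.14-fold higher in MDAH (adjusted p = 0.000191). VIM, the intermediate filament gene of mesenchymal cells, was bright in both lines and 1.94-fold higher in SKOV3 (adjusted p = 0.00212). CDH2, the N-cadherin gene, was 2.79-fold higher there (adjusted p = 0.00159). COL5A1, a fibrillar collagen chain, was 123-fold higher in SKOV3, at 4.25 and 2.62 on its arrays, and LOXL1, a crosslinker of elastin and collagen, 34.1-fold.

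Not every mesenchymal gene was higher in SKOV3. TNC, the matrix protein tenascin C, was at 2.21 and 2.31 in MDAH and at -3.96 and -3.72 in SKOV3, with 1 SKOV3 array well above background (log2 difference 6.10, SE 0.15, adjusted p = 1.91e-05). MYL9, a myosin light chain of contractile cells, was at least 35.7-fold higher in MDAH. The homeobox gene PRRX1 was 9.83-fold higher, and CDH11, a cadherin of mesenchymal cells, at least 1.55-fold. FN1, the fibronectin gene, was dim in both lines and at least 1.30-fold higher in MDAH.

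**Figure D2:**
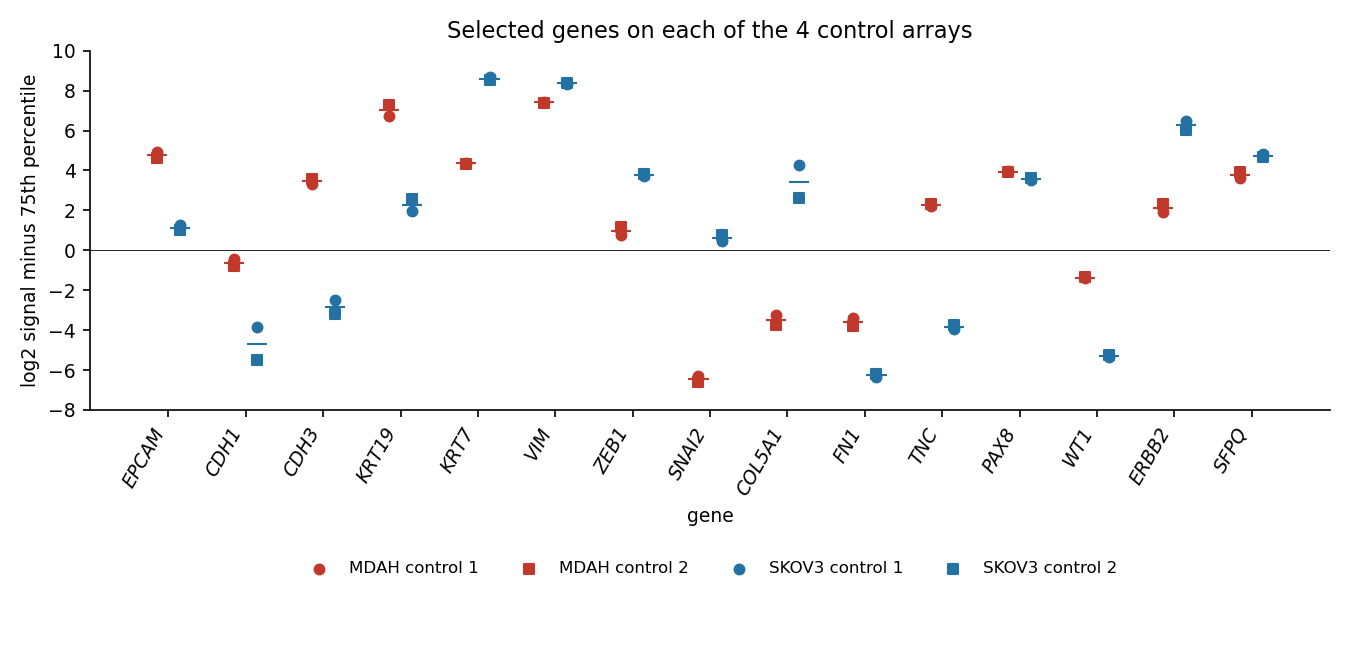
Level of 15 genes on each of the 4 control arrays, as log2 signal minus the 75th percentile; circles and squares are the first and second array of a line, red MDAH and blue SKOV3, and short lines are means over the 2 arrays. EPCAM, CDH1, CDH3 and KRT19 were higher on both MDAH arrays, KRT7, ZEB1 and SNAI2 on both SKOV3 arrays, and PAX8 was nearly level.

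ZEB1 and SNAI2 proteins are known to bind the E-box letters CACCTG. These letters were searched on both strands in the 250 bases before the start of each gene in RefSeq promoters of build GRCh38.p14. A promoter was held for 25 of the 50 epithelial genes, too few for a reading of the list, and CDH1, EPCAM and CDH3 were not among them. The letters were present in 11 of the 25, in 4 of 14 genes called higher in MDAH, in 5 of 6 called higher in SKOV3 and in 1 of 3 tested and not called. Of all 27305 promoters, 17.5% held them. A match is a description of the letters and no evidence of binding. The stretches of 3 genes are shown because they hold 2 or more matches and stand for the 3 outcomes, with each match in capitals (CACCTG, or CAGGTG where it lies on the other strand). AP1M2, a sorting adaptor of polarised epithelia, was 5.17-fold higher in MDAH. DSP, the desmosomal plaque gene, was 1.74-fold higher in SKOV3, and CRB3, a polarity gene, was not called (log2 difference 0.11). The stretches are chr19:10587313-10587562 on the minus strand, chr6:7541421-7541670 on the plus strand and chr19:6464021-6464270 on the plus strand.
AP1M2: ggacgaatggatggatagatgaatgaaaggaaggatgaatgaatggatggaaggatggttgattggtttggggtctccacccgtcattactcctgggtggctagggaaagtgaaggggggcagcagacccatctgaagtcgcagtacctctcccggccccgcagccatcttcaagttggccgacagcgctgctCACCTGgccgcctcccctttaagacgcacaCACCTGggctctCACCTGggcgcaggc
DSP: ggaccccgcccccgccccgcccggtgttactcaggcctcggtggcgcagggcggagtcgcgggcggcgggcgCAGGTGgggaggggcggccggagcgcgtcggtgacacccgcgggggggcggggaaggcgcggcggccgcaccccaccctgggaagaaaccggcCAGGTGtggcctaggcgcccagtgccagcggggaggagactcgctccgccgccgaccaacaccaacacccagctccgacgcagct
CRB3: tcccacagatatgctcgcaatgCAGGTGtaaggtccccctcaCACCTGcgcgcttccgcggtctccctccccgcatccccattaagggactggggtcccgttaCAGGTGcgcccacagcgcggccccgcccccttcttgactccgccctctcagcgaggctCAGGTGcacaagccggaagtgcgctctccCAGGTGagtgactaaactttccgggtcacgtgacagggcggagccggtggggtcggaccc

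Integrins and laminins, the receptors and ligands that tie cells to the basement membrane, differed without a common direction. Of 32 tested, 10 (31.25%) were called higher in MDAH and 11 (34.4%) in SKOV3, near the 30.4% and 34.6% of all genes. Of the called members, 5 and 6 differed by at least 4-fold. These are 15.6% and 18.75% of those tested, against 10.7% and 7.01% of all genes. ITGB1, the beta chain shared by many integrins, was at 2.89 and 2.74 in MDAH and at 2.77 and 3.07 in SKOV3, a log2 difference of -0.10 (adjusted p = 0.606). LAMB3 and LAMA3, 2 chains of the epithelial laminin-332, were 7.85-fold and 7.33-fold higher in SKOV3. ITGA4 was at least 9.997-fold higher in SKOV3 and ITGB8, a chain that activates TGF-beta, 16.0-fold. LAMA1 was at least 8.40-fold higher in MDAH, ITGAM at least 7.64-fold and LAMC3 at least 6.91-fold, while ITGB7 was measured in both lines and 10.3-fold higher.

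Receptor tyrosine kinases differed in both directions, 15 of 35 tested higher in MDAH and 14 in SKOV3. ERBB3, the kinase-poor partner of ERBB2, was at 0.73 and 0.39 in MDAH and at -2.19 and -2.69 in SKOV3, 7.99-fold apart, but its second probe gave a log2 difference of -0.33. EGFR was 1.84-fold higher in MDAH (adjusted p = 0.00293); the call was lost when all 8 arrays shared 1 spread (adjusted p = 0.221). FGFR2 was 7.23-fold higher in MDAH, and EPHB6 and ROR2 were dim in SKOV3, with bounds of at least 7.41-fold and 1.77-fold. KIT, the receptor of stem cell factor, was at -6.92 and -6.89 in MDAH and at -0.09 and -0.79 in SKOV3, at least 21.6-fold higher in SKOV3. Its ligand gene KITLG was 9.68-fold higher in the same line. KDR, a VEGF receptor, was at least 3.44-fold higher in SKOV3 and PTK7 8.62-fold.

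Growth factor genes showed large differences with no shared direction. Of 26 tested, 13 were called higher in MDAH and 9 in SKOV3, with 9 and 7 by at least 4-fold. After AREG, the MDAH side held FGF13, an intracellular FGF homolog, at least 37.8-fold higher, and FGF7, a ligand of epithelial FGFR2, at least 7.58-fold. PDGFB was at 0.58 and 0.69 in MDAH and at -1.84 and -3.97 in SKOV3, where 1 array was well above background. Its call (adjusted p = 0.00855) was lost when MDAH control 1 or 2 was left out (adjusted p = 0.0661 and 0.0687). The SKOV3 side held FGF5 with at least 28.6-fold, FGF1 with at least 13.6-fold and PDGFC, which was 37.6-fold higher.

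Genes around ERBB2 on the long arm of chromosome 17 were almost all higher in SKOV3. Of 38 tested in a row, 32 were called higher in SKOV3 and 2 in MDAH, against 34.6% and 30.4% of all genes. By at least 4-fold 14 were higher in SKOV3 and 0 in MDAH. The median was -1.49 and lay between -1.64 and -1.26 in all alternatives. PPP1R1B, which encodes a phosphatase inhibitor, was at -6.04 and -5.13 in MDAH and at 1.99 and 1.80 in SKOV3, at least 109-fold higher in SKOV3. NEUROD2, a neuronal transcription factor, was at least 10.7-fold higher. PGAP3, which remodels lipid anchors of proteins, was 23.2-fold higher. At the ends of the row MLLT6 differed by -0.62 and SMARCE1 by -1.43.

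GRB7, an adaptor gene next to MIEN1 and close to ERBB2, did not follow its neighbours. It was at 0.26 and 0.48 in MDAH and at -0.15 and -1.17 in SKOV3, a log2 difference of 1.03 that missed the threshold (adjusted p = 0.053). Without SKOV3 control 1 the difference was 1.54 and passed (adjusted p = 0.000637). The 2 genes called higher in MDAH were IGFBP4 and TNS4, at differences of 1.93 and 1.71. Both were not well above background on either SKOV3 array and were not called after normexp background correction, at 0.18 and 0.08. The copy number of the region was not measured here.

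HOX genes, which set position along the body axis and lie in 4 clusters, differed by cluster. Of 31 tested, 22 differed by at least 4-fold, 13 higher in MDAH and 9 in SKOV3. All 7 tested HOXC genes were called higher in MDAH, by at least 4-fold each, with a median difference of 4.20. In HOXA, 7 of 10 were higher in MDAH and HOXA13 was higher in SKOV3, with a median of 2.66. In HOXB, 8 of 9 were higher in SKOV3 by at least 4-fold and 0 in MDAH, with a median of -4.80. The 5 tested HOXD genes held 2 calls towards MDAH and 1 towards SKOV3, none by 4-fold.

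HOXC4 was at 1.92 and 1.89 in MDAH and at -5.49 and -5.92 in SKOV3, at least 59.3-fold higher in MDAH. HOXC6 was at least 47.4-fold higher and HOXA4 at least 25.1-fold. HOXA7, measured in both lines, was 40.4-fold higher in MDAH (adjusted p = 2.64e-05). Within the HOXA cluster, HOXA9 and HOXA10 stood out for differences of 0.07 and 0.52, neither of which was called. HOXB2 was at -3.52 and -2.98 in MDAH and at 5.65 and 5.46 in SKOV3, 449-fold apart. HOXB5 was at least 555-fold higher in SKOV3, HOXB8 136-fold and HOXB4 29.4-fold.

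**Figure D3:**
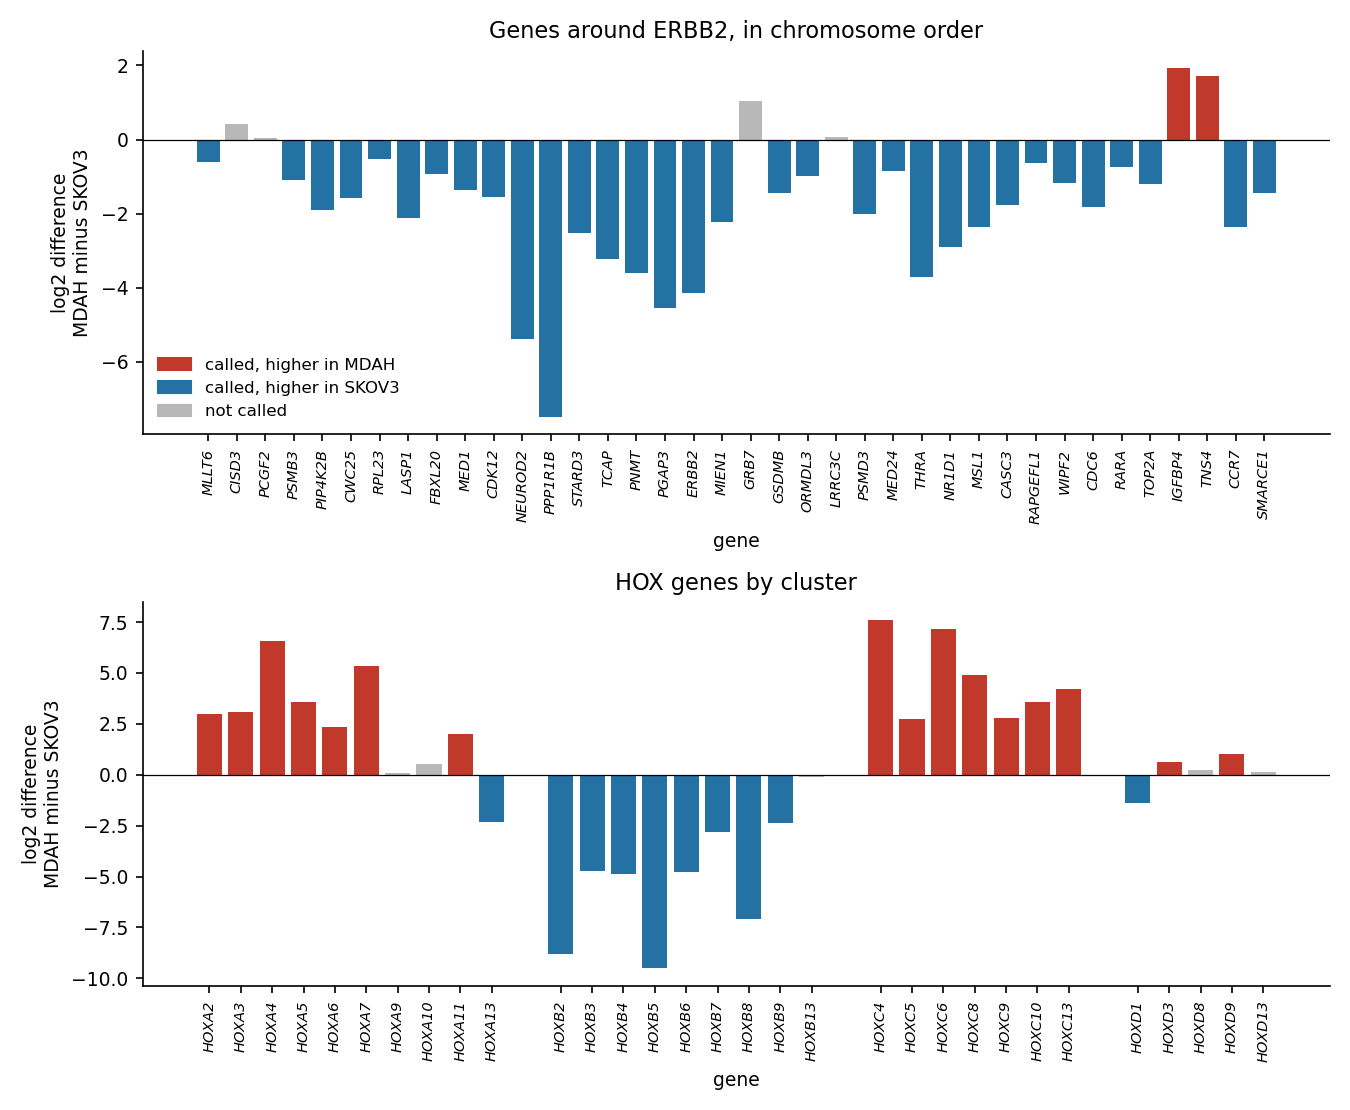
Log2 difference, MDAH minus SKOV3, of the 38 tested genes around ERBB2 in chromosome order (top) and of the 31 tested HOX genes by cluster and number (bottom); red and blue bars were called higher in MDAH or SKOV3, grey bars were not called. Bars around ERBB2 point almost all towards SKOV3, deepest at PPP1R1B, whose MDAH level was at background, and the HOXB bars point to SKOV3 while the HOXC bars point to MDAH.

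Runs of neighbouring genes that differ together were looked for across all chromosomes, as the median difference over 11 tested genes in a row. Over 15178 such windows the median was -0.04, and the percentiles 1 and 99 lay at -1.73 and 1.67. Fitted differences entered these medians also where a gene was at background in 1 line. Among windows that did not overlap, the HOXC and HOXA runs had the highest medians, 3.59 and 2.99, and the HOXB run came after the lowest with -4.73. The lowest, -5.38, was a run of zinc finger genes on chromosome 19. All its 11 genes were higher in SKOV3, from ZSCAN5A with a log2 difference of -1.47 to ZNF542P with -8.41. ZNF471, ZNF470, ZNF71, ZNF582 and ZFP28 were among them.

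Another low run lay on chromosome 15, where imprinted genes are found. SNRPN and SNURF, which share a transcript, were at least 38.6-fold and 44.4-fold higher in SKOV3. PWARSN was at least 12.9-fold, SNORD116-19 at least 8.69-fold and MKRN3 at least 4.52-fold higher there, and none of these 5 was well above background in MDAH. Beside them CYFIP1 and NPAP1 were not called, with log2 differences of 0.28 and -0.10, and TUBGCP5 was called higher in MDAH, at 0.54, a call that was lost under median centring. The last low run, on chromosome 5, held clustered protocadherins, cell adhesion genes with much sequence in common, whose probes may bind more than 1 member. Its median was -3.64, and PCDHB8, PCDHB16 and PCDHB9 were at least 16.0-fold, 14.4-fold and 13.2-fold higher in SKOV3.

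The last high runs lay on chromosome 22, from the cytokine genes LIF and OSM to GAL3ST1, and on the X chromosome, around TMSB15B and RADX. Their medians were 2.63 and 2.57, and 10 and 8 of the 11 genes were higher in MDAH. SEC14L4, a lipid-binding protein gene, was at least 83.7-fold higher in MDAH in the first run, and RADX, a regulator of replication forks, at least 55.0-fold in the second.

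WNT pathway genes showed 17 of 45 tested (37.8%) higher in MDAH and 16 (35.6%) in SKOV3, against 30.4% and 34.6% of all genes. By at least 4-fold the WNT list held 10 and 8. DKK1, a secreted inhibitor of the pathway, was at -0.12 and 0.77 in MDAH and at 5.26 and 5.56 in SKOV3, 33.9-fold apart (adjusted p = 0.000232). DKK3, a related secreted protein, was 115-fold higher in SKOV3. The ligand gene WNT7A was 98.2-fold higher there and the receptor gene FZD2 6.75-fold. In MDAH the intracellular inhibitor gene NKD2 was at 3.02 and 3.19 against -4.06 and -3.43, with 1 SKOV3 array well above background (log2 difference 6.85, SE 0.24), and WNT6 was 28.9-fold higher. APCDD1 and RNF43, feedback genes of the pathway, were at least 4.77-fold and 3.78-fold higher in MDAH. AXIN2, also a feedback gene, was called higher in SKOV3 (log2 difference -2.45, adjusted p = 0.000808), with 1 of 2 MDAH arrays well above background. CTNNB1, which encodes the effector beta-catenin, was not called (log2 difference 0.42, adjusted p = 0.103).

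In the NOTCH pathway, which signals between touching cells, 10 of 30 tested members were higher in MDAH and 8 in SKOV3, near the shares of all genes. NOTCH1 was not called (log2 difference 0.18, adjusted p = 0.375). HES4, a target gene, was 9.66-fold higher in MDAH and LFNG, a glycosyltransferase of NOTCH receptors, 8.03-fold. HEYL, well above background on 1 of 2 SKOV3 arrays, was called higher in MDAH, a call that was lost without MDAH control 2 (adjusted p = 0.0612). On the other side DTX1 was at least 3.31-fold and the coactivator gene MAML2 at least 4.83-fold higher in SKOV3.

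TGF-beta and BMP genes held 19 of 46 tested called in each direction, with 12 by at least 4-fold towards MDAH and 5 towards SKOV3. After BMP7, MDAH had higher ENG, a coreceptor, by at least 20.0-fold, and CHRDL1, a BMP antagonist, by at least 21.7-fold. GDF15, a stress-induced ligand, was at 5.24 and 4.13 in MDAH and at 0.17 and 0.24 in SKOV3, 22.3-fold apart. FSTL3, an inhibitor of activins, was 29.8-fold higher in SKOV3, SMAD9 21.1-fold and LTBP1, which stores latent TGF-beta in the matrix, 12.5-fold. The ligand gene BMP4 was 7.74-fold higher in SKOV3. TGFB1 was not called (log2 difference 0.11, adjusted p = 0.511).

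Of 46 cytokine and cytokine receptor genes tested, 19 were called higher in MDAH and 15 in SKOV3. The shares were 41.3% and 32.6%, against 30.4% and 34.6% of all genes. TNF was at 5.48 and 6.12 in MDAH and at -0.23 and 0.40 in SKOV3, 52.6-fold apart (adjusted p = 0.00015). The chemokine gene CCL2 was at least 20.8-fold higher in MDAH and CX3CL1 at least 7.55-fold. IL6 was at 7.23 and 7.26 in MDAH and at 1.71 and 4.02 in SKOV3. Its call (adjusted p = 0.00536) was lost without MDAH control 1 or 2 (adjusted p = 0.0518 and 0.0508), and the SKOV3 arrays lay further apart than the MDAH arrays.

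The interleukin-1 genes went the other way. IL1B was at -6.70 and -6.84 in MDAH and at 0.17 and 3.26 in SKOV3, at least 96.3-fold higher in SKOV3. IL1A was at least 61.6-fold higher, with SKOV3 arrays at -0.38 and 2.52. IL18, of the same family, was steadier, at -1.57 and -1.65 in MDAH and at 3.42 and 3.69 in SKOV3, 36.0-fold apart. On IL6, IL1A and IL1B alike, SKOV3 control 2 was the higher of the SKOV3 arrays. IL13RA2, a decoy receptor well above background on 1 of 2 MDAH arrays, was also higher in SKOV3 (log2 difference -5.13, adjusted p = 0.0129), and this call was lost without MDAH control 2 (adjusted p = 0.093).

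Antigen presentation and interferon-stimulated genes were mixed, with 20 of 53 tested higher in MDAH and 14 in SKOV3. The shares were 37.7% and 26.4%, against 30.4% and 34.6% of all genes. B2M, the light chain that all HLA class I molecules need, was at 2.74 and 2.49 in MDAH and at 6.85 and 6.85 in SKOV3, 18.9-fold apart (adjusted p = 4.2e-05). BST2, a membrane tether of viruses, was 19.8-fold higher in SKOV3, and the growth inhibitor gene SAMD9L at least 28.9-fold. IFI16, a DNA sensor, was called higher in SKOV3 and was well above background on 1 of 2 MDAH arrays, so no exact fold is given. MDAH had higher IFIH1, an RNA sensor (15.2-fold), CD74, the invariant chain of HLA class II (at least 12.8-fold), and HLA-DMB (at least 4.08-fold). OASL, an interferon-stimulated gene, was called higher in MDAH too, with 1 of 2 SKOV3 arrays well above background.

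Cancer-testis genes, normally kept to germ cells, could be read for 19 of 43 named members. Of these 5 (26.3%) were higher in MDAH and 7 (36.8%) in SKOV3, against 30.4% and 34.6% of all genes. VCX2, PAGE2B and PAGE2, all on the X chromosome and with close relatives of like sequence, were at least 15.6-fold, 11.3-fold and 6.56-fold higher in MDAH. SPANXA1 was at -5.24 and -4.44 in MDAH and at 1.56 and 2.68 in SKOV3, with 1 MDAH array well above background. The groups did not overlap, as in 85.2% of all genes tested.

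Cell cycle and stress response genes were called 17 times towards MDAH and 19 times towards SKOV3 among 45 tested. CDKN2A, which encodes the inhibitors p16 and p14, was at 5.50 and 5.71 in MDAH and at 0.53 and -0.03 in SKOV3, 40.9-fold apart (adjusted p = 7.07e-05). CCND2, a D-type cyclin gene, was at least 64.4-fold higher in MDAH, while CCND1 was 2.20-fold higher in SKOV3. CDKN1A, which encodes the kinase inhibitor p21, was well above background on the MDAH arrays alone, at -2.99 and -3.32, and at least 1.78-fold higher there (adjusted p = 0.000226). BTG2 was 7.95-fold higher in MDAH. MDM2 was 3.78-fold higher in SKOV3 (adjusted p = 0.00026), as was ZMAT3 (at least 3.77-fold). CCNE2, a cyclin of S-phase entry, was 5.14-fold higher in SKOV3 and the inhibitor gene CDKN2C 4.59-fold.

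DNA repair genes differed little in size. Of 46 tested, 21 were called higher in MDAH and 9 in SKOV3, but 2 differed by at least 4-fold, among them CHEK2, which encodes a checkpoint kinase. CHEK2 was at 3.79 and 4.07 in MDAH and at 0.63 and 0.63 in SKOV3, 9.81-fold apart (adjusted p = 8.76e-05). In mismatch repair, PMS2 was 2.48-fold higher in MDAH and MLH3 3.35-fold. BRCA1 and BRCA2, genes of recombination repair, were 1.70-fold and 2.47-fold higher in SKOV3. ATR, the kinase of replication stress, was 2.14-fold higher in SKOV3.

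Transporters and metallothioneins, which handle drugs and metals, were tested for 31 members, of which 12 were called higher in MDAH and 4 in SKOV3. By at least 4-fold 6 were higher in MDAH and 0 in SKOV3. MT1M was at 3.005 and 2.81 in MDAH and at -6.02 and -5.89 in SKOV3, at least 119-fold higher, and MT1F at least 69.3-fold. Metallothionein genes are much alike, and their probes may bind several members. ABCC6 was 28.0-fold and ABCA3 10.7-fold higher in MDAH, both genes of ATP-driven transporters. ABCC1, a drug efflux pump, was 1.66-fold higher in SKOV3. The copper chaperone gene ATOX1 was 2.02-fold and the copper pump gene ATP7B 1.67-fold higher in SKOV3. ATP7A, another copper pump gene, was 3.22-fold higher in MDAH (adjusted p = 0.00117).

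Central carbon metabolism was less divided. Of 38 glycolysis genes tested, 12 (31.6%) were higher in MDAH and 10 (26.3%) in SKOV3, against 30.4% and 34.6% of all genes. By at least 4-fold 5 glycolysis genes differed, 13.2% against 17.7% of all genes. HK1, a hexokinase, was at 1.54 and 1.56 in MDAH and at 3.94 and 4.22 in SKOV3, 5.78-fold apart, while HK2 was not called (log2 difference -0.04, adjusted p = 0.828). HKDC1, a related hexokinase, was 4.37-fold higher in MDAH and ALDOC, an aldolase, 11.7-fold. LDHA, which makes lactate, was 2.11-fold higher in SKOV3. Among 38 genes of the tricarboxylic acid cycle and its supply, 14 were higher in MDAH and 6 in SKOV3. PCK2, the mitochondrial carboxykinase, was at 2.87 and 2.39 in MDAH and at -2.44 and -2.23 in SKOV3, 31.2-fold apart. PC, pyruvate carboxylase, was 4.39-fold higher in SKOV3, and CS, citrate synthase, was not called (log2 difference -0.32, adjusted p = 0.0912).

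Lipid genes were more often higher in MDAH on the control arrays, 24 of 52 against 12 in SKOV3. Their median of 0.56 lay between 0.35 and 0.74 in all alternatives, but was 0.07 on the silenced arrays. LPL, the lipase of circulating triglycerides, was at 3.05 and 3.37 in MDAH and at -6.02 and -5.87 in SKOV3, at least 147-fold higher. FASN, the key enzyme of fatty acid synthesis, was not called (log2 difference 0.38, adjusted p = 0.26). The carnitine transferases were split, with CPT1C 15.8-fold higher in MDAH and CPT1A 11.8-fold higher in SKOV3. ACSL5 and ELOVL2, which activate and lengthen fatty acids, were 23.6-fold and 12.6-fold higher in SKOV3.

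Of 55 redox and detoxification genes tested, 17 (30.9%) were called higher in MDAH and 22 (40.0%) in SKOV3. Over all genes these shares were 30.4% and 34.6%. MGST1, a glutathione transferase of membranes, was at -6.85 and -6.88 in MDAH and at 2.90 and 3.46 in SKOV3, at least 266-fold higher in SKOV3. UGT1A6 was at least 200.5-fold higher, and AKR1C3, a ketosteroid reductase with close relatives, 112-fold. CYP24A1, which degrades vitamin D, was at least 14.4-fold higher in SKOV3. GSTA4 and CYP2S1 were 31.7-fold and 12.1-fold higher in MDAH. NQO1, a common target of NRF2, was not called (log2 difference 0.14, adjusted p = 0.539).

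Amino acid and single-carbon metabolism was called 27 times towards MDAH and 17 times towards SKOV3 among 58 genes. PHGDH, the first enzyme of serine synthesis, was at 4.25 and 3.80 in MDAH and at 0.20 and 0.46 in SKOV3, 12.9-fold apart (adjusted p = 0.000164). ASNS, asparagine synthetase, was 10.4-fold higher in MDAH, and ARG2, an arginase, 11.98-fold. The largest differences of the list lay towards SKOV3. After NNMT, BCAT1, which transfers amino groups from branched-chain amino acids, was at -7.06 and -7.16 in MDAH and at 3.19 and 2.83 in SKOV3, at least 237-fold higher in SKOV3. CDA, cytidine deaminase, was 119-fold higher in SKOV3 and TDO2, a tryptophan dioxygenase, at least 14.8-fold.

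Splicing and cell death genes were chosen around SFPQ, NONO, SRSF2 and CASP9. Of 47 tested, 26 were higher in SKOV3 and 10 in MDAH, with 4 by at least 4-fold, namely BIRC3, CFLAR and SGK2 towards MDAH and CASP10 towards SKOV3. The median was -0.56 and lay between -0.71 and -0.40 in all alternatives. BIRC3, an inhibitor of apoptosis, was at 5.90 and 6.25 in MDAH and at 1.46 and 2.63 in SKOV3, 16.4-fold apart. CFLAR, an inhibitor of caspase 8, was 9.25-fold higher in MDAH by its brightest probe, and its 4 probes ranged from -0.04 to 3.21. CASP10 was 5.67-fold higher in SKOV3, MCL1 3.09-fold and the splicing factor genes SRSF9 and SRSF1 3.22-fold and 2.23-fold. SRSF11 was 2.42-fold higher in MDAH.

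Structural genes of 2 large complexes were compared as well. Of 77 ribosomal protein genes, 6 were called higher in MDAH and 8 in SKOV3, well under the shares of all genes, and 0 differed by 4-fold. RPL3 was 1.77-fold higher in MDAH and RPS26 2.01-fold higher in SKOV3. Of 34 proteasome genes, 22 were higher in SKOV3 and PSMB6, at 1.86-fold, was the 1 gene higher in MDAH. The proteasome median was -0.57 and lay between -0.72 and -0.46 in all alternatives. The subunit genes PSMD6 and PSMD3 were 4.48-fold and 4.01-fold higher in SKOV3, and PSMD3 is also one of the genes around ERBB2.

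**Figure D4:**
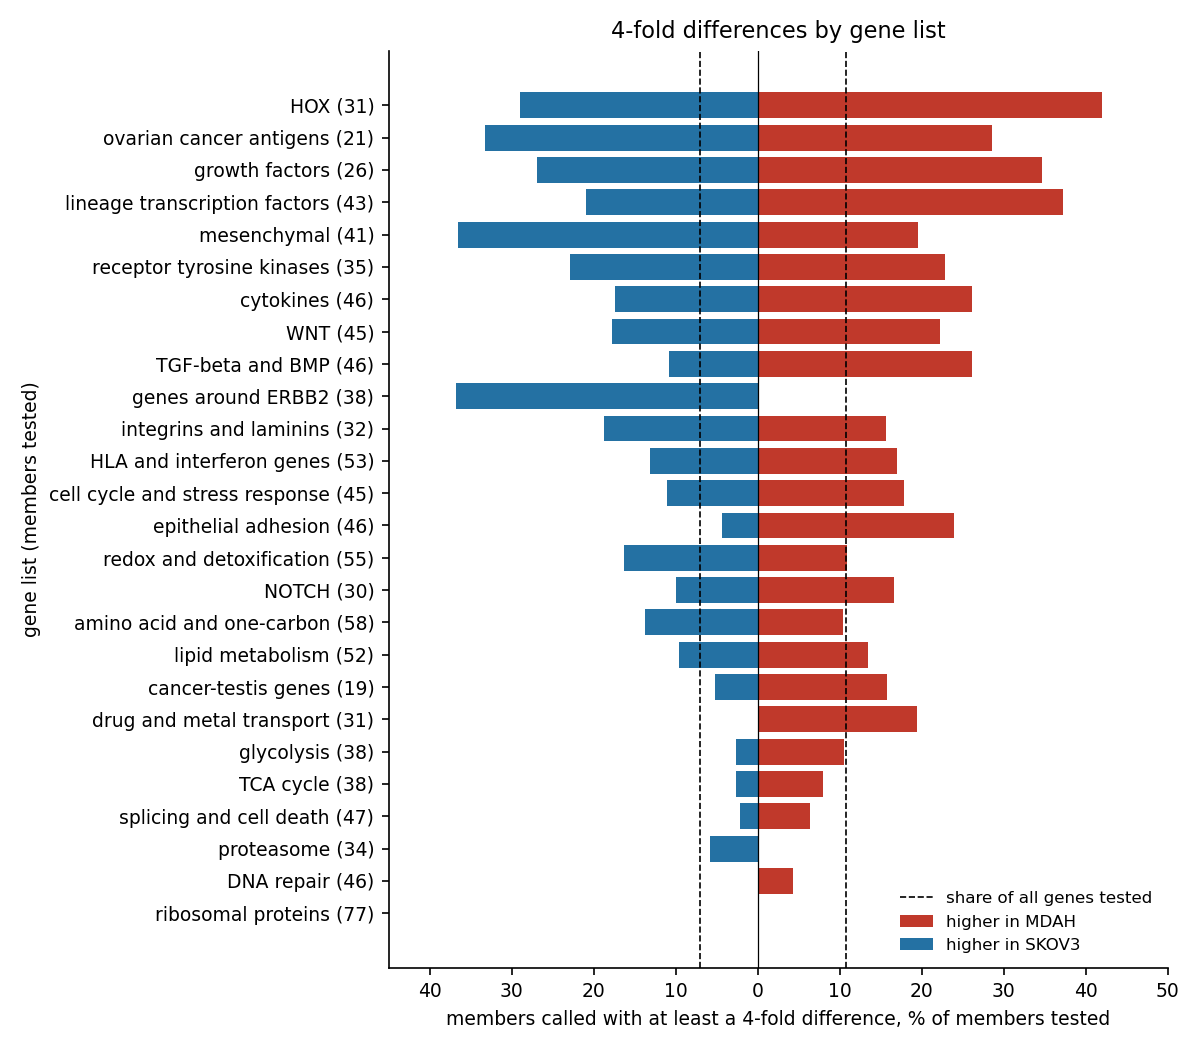
Share of the tested members of each gene list called at least 4-fold higher in MDAH (red, to the right) or SKOV3 (blue, to the left), in percent of the members tested, whose number follows each name; dashed lines mark the shares of all genes tested, 10.7% and 7.01%. Many lists reached beyond both dashed lines, among them HOX genes, antigens, growth factors, lineage factors, mesenchymal genes, receptor tyrosine kinases, WNT genes and cytokines. The lists were chosen with earlier results of these data known, so a share beyond the lines is a description and no test. Ribosomal protein genes held no such call, and genes around ERBB2 pointed to SKOV3 alone.

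The same lines were measured again on the 4 arrays of SFPQ-silenced cells, which share no sample with the controls. These arrays lay on the same slide as the controls, so line and slide row cannot be told apart here either. Among the silenced arrays, each line had 1 array of shRNA 2 and 1 of shRNA 3. There 3459 of the 15427 genes (22.4%) were called higher in MDAH and 3085 (20.0%) higher in SKOV3. Of the 2726 genes called at least 4-fold apart in the control arrays, 2695 (98.9%) had the same sign. Of all 15427 genes tested, 13092 (84.9%) had the same sign. Of the 2726 genes, 2404 (88.2%) were called in the same direction. Both sets of arrays shared 5913 calls in the same direction, 59.0% of the control calls and 90.4% of the silenced calls, and 17 genes were called in opposite directions. Across genes the differences correlated at r = 0.93, a description over genes that are not independent replicates. Without a SKOV3 silenced array the calls towards MDAH numbered 2096 (without shRNA 2) and 2106 (without shRNA 3), and those towards SKOV3 1671 and 1725.

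Differences of single genes named above had like values in silenced cells in most cases. Fitted log2 differences there were -4.25 for ERBB2, -13.34 for NNMT and -1.93 for ZEB1, all called. HOXB2 differed by -8.55 and HOXC4 by 7.45. CDH1 differed by 1.87 and was not called (adjusted p = 0.0534). PHGDH, at 1.24, was not called either (adjusted p = 0.0679). PAX8 had the other sign, -0.72 (adjusted p = 0.0345). Medians of some lists were nearer to level in silenced cells, at 0.07 for lipid, -0.26 for mesenchymal and -0.16 for proteasome genes. Those of epithelial adhesion, splicing and cell death, and genes around ERBB2 were 0.67, -0.41 and -1.37. The difference between the control and the silenced values was tested for every gene over all 8 arrays. It passed for 28 genes, 27 of them called at least 4-fold apart in the controls, and for none of the genes named above. With 2 arrays per group, a change that did not pass is not shown to be absent. PHGDH went from 3.69 to 1.24 without passing (limma adjusted p of the change = 0.17).

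**Figure D5:**
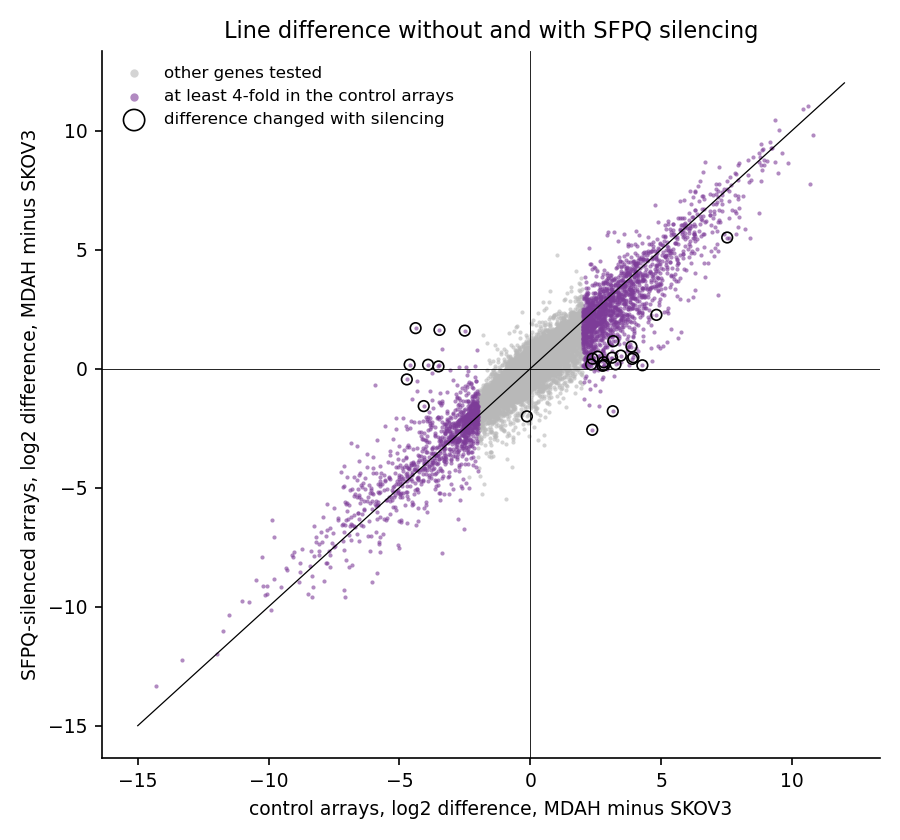
Log2 difference, MDAH minus SKOV3, in the control arrays (horizontal) against that in the SFPQ-silenced arrays (vertical) for each gene tested; purple points were called at least 4-fold apart in the controls, open circles mark genes whose difference changed with silencing, and the line marks equal differences. Most points follow the line (r = 0.93), and many circled genes lie near 0 in the silenced arrays.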

How the data were processed

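RNA of 8 samples was hybridised to single-colour Agilent arrays of 62976 spots, of which 4 control arrays were compared. The authors deposited the scanner files, whose intensity values (gProcessedSignal) had been background-subtracted by Agilent Feature Extraction, version 11.5.1.1 per the file headers and 10.7.3.1 per the submitters' processing notes. They also deposited a table of log2 values, used only as an alternative. Control spots and outlier spots (209 to 310 per array) were removed, repeat spots were averaged per probe, 16 probes missing on an array were dropped, and log2 intensity minus the array's percentile 75 was taken. No probe was saturated. The number of arrays, not counting depth, limits the precision.

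Of 50599 probes, 30878 had a RefSeq accession and 28174 were named through RefSeq genes of GRCh38.p14. The brightest probe stood for a gene. A gene was tested where both arrays of either line had it well above background, by limma 3.58.1 in R 4.3.3 (lmFit, eBayes, residual degrees of freedom 2, prior 2.90), in a fit tested on simulated data. Silenced arrays had their own fit. Probes of near-identical genes may share signal.

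Genes were named by rule: the 15 highest and 15 lowest differences among genes above background on all 4 arrays, the 10 largest bounds each way, the 4 highest and 4 lowest of each list, 12 fixed genes, genes that background on a list names, and genes in runs of neighbours. AP1M2, DSP, CRB3, MUC16, ESRP1, MLLT6, SMARCE1, GRB7, HOXA13, SNAI1, AXIN2 and ATP7A were named after their values were seen. Some genes that the rule picks are not reported here. The members and lists were chosen with earlier results of these data known. Alternatives were the median or quantile scaling, normexp on median pixel intensities (offset 50), the deposited table, other filters, the mean of probes, all 8 arrays in 1 fit, a trended robust prior, the replicate number as a block and each array left out. All arrays lay on 1 slide, so no slide block was possible. A share of promoters with the searched letters over all genes tested was void, since 11991 of 15427 genes had a promoter.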

Additional observations from a re-analysis of the deposited data

Results flagged for a closer look

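The line difference itself changed with SFPQ silencing for 28 genes, by the test of the difference between the control and the silenced contrast (limma interaction over all 8 arrays, Benjamini-Hochberg adjusted). The 4 with the largest change were taken after their values were seen, and in each the difference had opposite signs in the control and the silenced arrays. All are dim probes whose levels lay at or near background on some arrays, and the part of the dim signal in the change was not tested.

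CLEC12A, a lectin receptor gene of myeloid cells, was at -6.43 and -5.83 in control MDAH and at -1.9995 and -1.49 in control SKOV3. In silenced cells it was at -5.01 and -4.18 in MDAH and at -6.23 and -6.36 in SKOV3. The log2 difference thus went from -4.38 to 1.70, a change of -6.08 (adjusted p = 0.0115).

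PCDH9, a protocadherin gene, had a difference of -3.47 in the controls and 1.62 in silenced cells, a change of -5.10 (adjusted p = 0.0492). For the antisense transcript ZMIZ1-AS1 the values were 3.15 and -1.79, a change of 4.94 (adjusted p = 0.0492). TNFSF14, the gene of the cytokine LIGHT, was higher on both control MDAH arrays, at -3.49 and -3.92 against -6.14 and -5.99. In silenced cells it was at -5.34 and -5.88 in MDAH and at -3.13 and -2.94 in SKOV3, which makes a change of 4.94 (adjusted p = 0.0115).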

How the results depend on the processing

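The counts of calls, 4697 towards MDAH and 5333 towards SKOV3, ranged from 3458 to 5040 and from 4198 to 6838 over the alternatives, all within 1.5 times. With 1 control array left out they ranged from 3741 to 4524 and from 4198 to 4875, and the counts of at least 4-fold from 1574 to 1731 and from 1068 to 1125. Those 4-fold counts, 1644 and 1082, were 769 and 661 after normexp background correction, which shrinks differences of dim probes, and 662 and 697 where only genes above background on all 4 arrays were tested, which leaves out genes at background in 1 line. The calls in silenced cells ranged from 2096 to 2503 towards MDAH and from 1671 to 2196 towards SKOV3 with 1 silenced array left out. Centring on the median moved the median of all genes from -0.05 to -0.20. Of 369 named genes 337 were called, and 316 of them kept direction and threshold in every alternative. Many were named for their large differences, so these counts do not describe all genes, of which 65.0% were called. HP, the haptoglobin gene, went from 0.73 to -0.025 after normexp (adjusted p = 0.879), and the cause was not tested.

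With the replicate number as a block, 4670 and 5271 genes were called (1647 and 1082 by at least 4-fold), and 4026 and 3705 in silenced cells. The numbers pair 2 arrays a line and nothing states what they share, with a correlation of deviations of 0.08 in the controls and 0.37 in silenced cells. No slide block was run. Where signal is at background, only bounds on a difference can be given.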
